A study of Drosophila melanogaster with 8 samples.

Results

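The autosomal intergenic regions described here are stretches of open chromatin that lay outside every annotated gene and were found in all 4 neuron pools of the study. They were selected on the deposited peak lists: peaks of the 4 lists were merged wherever they shared at least 1 bp, and an autosomal merged region was kept when it held a peak of every list, overlapped no annotated gene and lay more than 50 bp from every transcription start site. This gave 963 regions, 6.55% of the 14709 merged regions of the whole series (95% Wilson interval 6.16 to 6.96) and 13.9% of the 6926 autosomal regions shared by all 4 lists. A further 1634 autosomal intergenic regions were found in only 1, 2 or 3 lists. The shared regions were thus 37.1% of the 2597 autosomal intergenic regions (35.2 to 39.0), where the same share was 88.3% among promoter regions (87.3 to 89.2), 38.5% among intronic regions (37.0 to 40.1) and 41.6% among exonic regions (38.6 to 44.7). Presence of a peak in each list chose these regions, so their height and width are given as a description.

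The lists come from ATAC-seq, in which a transposase cuts and tags open DNA, on neurons sorted from central brains of adult Drosophila melanogaster aged 2 to 7 days, of strain w1118, with the optic lobes removed. The fru+ pools of each sex were the GFP-positive neurons, the fru- pools a matched number of unlabelled cells, and every fly carried UAS-mCD8-GFP over MB247-Gal80 and Fru-GAL4 over TM2 or TM6B. GFP therefore reports activity of the P1 promoter of fruitless (fru) in either sex, and not the male-specific protein FruM, and MB247-Gal80 silences it in the Kenyon cells of the mushroom body, so that Kenyon cells transcribing fru fell in the fru- pools. Each group had 2 replicates of many pooled brains, but 1 list, described as pooled from both, was deposited per group, and no value per replicate was analysed here.

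No comparison between pools below has a replicate error or a test, and every interval covers counting error only. The labels conflict in 1 respect: the free-text descriptions of the female fru+ and male fru- samples name each other's group. Groups were taken from the titles, and the share of peaks on X followed the titles, at 15% and 20.3% in the male and female fru+ pools and 14.9% and 20.1% in the male and female fru- pools. If the descriptions held instead, the comparison called male fru+ over male fru- below would become male fru+ over female fru+ and the reverse, and female fru+ over female fru- would trade places with male fru- over female fru-. Single peaks are named after replicate 1 in the lists from males and after replicate 2 in those from females. If those names hold, sex and replicate cannot be told apart. The lists had 11307 and 11224 peaks in the male and female fru+ pools and 11218 and 11607 in the male and female fru- pools. Of the marker genes, 6 of 6 for neurons and 5 of 5 for Kenyon cells had a peak at a start site in all 4 lists, the fru+ lists included. Of 5 glial markers 0 had one and 4, repo among them, held no peak at all, and none of the 13 markers of photoreceptors, muscle, fat body and hemocytes held a peak.

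Open chromatin away from start sites commonly marks enhancers and insulators, where transcription factors displace nucleosomes and act on promoters some distance away. In flies the GAGA factor, which binds short runs of alternating G and A, keeps many promoters and enhancers accessible and also works at Polycomb response elements and chromatin boundaries. DREF and motif 1 are, by contrast, elements typical of the promoters of housekeeping genes. Regulatory DNA of developmental genes, transcription factor genes in particular, is often spread over long gene-free stretches.

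Sequences of 200 bp around the mean summit are shown for 8 regions on which the results turn, from the plus strand of dm6 as given in the RefSeq assembly. The first 4 are among the regions of highest fold enrichment, and they differ in their letters: that nearest to Cadps on chromosome 4 holds TATCGATA, the DREF element, and those nearest to H15, CG10195 and nerfin-2 hold GAGAG, the short core of GAGA factor sites. The next 2 lie upstream of transcription factor genes, the POU homeodomain gene pdm2 and the forkhead gene fd96Cb. The last 2 had the highest and the lowest ratio of male fru+ to male fru- fold enrichment, Adgf-A and CG42710. Capitals mark every match, on either strand, to 9 short motifs. These are the core GAGAG bound by GAGA factor, the homeodomain core TAATTA, the E-boxes CAGCTG and, as a separate form, CATATG, the AP-1 element TGANTCA, the DREF element TATCGATA, the Zelda element CAGGTAG, the TATA box written as TATAAA, and motif 1, written as GGTCACACT and bound by M1BP. No motif of this set contains another, though neighbouring matches can share bases.
Cadps chr4:1288816-1289015: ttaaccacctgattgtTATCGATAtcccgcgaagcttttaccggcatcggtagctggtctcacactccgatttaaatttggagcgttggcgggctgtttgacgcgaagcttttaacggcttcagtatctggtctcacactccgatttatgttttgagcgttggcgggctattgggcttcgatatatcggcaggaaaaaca
H15 chr2L:5403608-5403807: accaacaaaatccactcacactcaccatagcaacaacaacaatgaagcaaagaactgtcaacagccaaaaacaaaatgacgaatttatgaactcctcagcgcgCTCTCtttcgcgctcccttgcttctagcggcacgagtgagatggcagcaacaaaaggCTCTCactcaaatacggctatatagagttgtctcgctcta
CG10195 chr2L:19479693-19479892: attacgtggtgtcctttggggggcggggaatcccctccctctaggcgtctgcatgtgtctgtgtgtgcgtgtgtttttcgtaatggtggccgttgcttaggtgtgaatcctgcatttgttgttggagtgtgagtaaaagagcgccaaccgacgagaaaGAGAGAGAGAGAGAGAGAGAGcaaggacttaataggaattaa
nerfin-2 chr3R:10070295-10070494: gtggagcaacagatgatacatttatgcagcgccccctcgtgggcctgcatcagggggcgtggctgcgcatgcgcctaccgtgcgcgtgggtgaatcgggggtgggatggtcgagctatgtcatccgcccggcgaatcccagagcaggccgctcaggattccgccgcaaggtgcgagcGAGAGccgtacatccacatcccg
pdm2 chr2L:12655773-12655972: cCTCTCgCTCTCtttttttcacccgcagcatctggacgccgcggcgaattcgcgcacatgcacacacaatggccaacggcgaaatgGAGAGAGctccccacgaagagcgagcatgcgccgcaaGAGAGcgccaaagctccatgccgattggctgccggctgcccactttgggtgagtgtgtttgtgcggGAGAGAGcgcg
fd96Cb chr3R:25094683-25094882: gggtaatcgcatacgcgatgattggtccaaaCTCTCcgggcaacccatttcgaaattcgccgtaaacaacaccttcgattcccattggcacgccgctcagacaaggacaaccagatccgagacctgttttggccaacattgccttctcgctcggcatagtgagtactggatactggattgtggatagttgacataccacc
Adgf-A chr3L:17767388-17767587: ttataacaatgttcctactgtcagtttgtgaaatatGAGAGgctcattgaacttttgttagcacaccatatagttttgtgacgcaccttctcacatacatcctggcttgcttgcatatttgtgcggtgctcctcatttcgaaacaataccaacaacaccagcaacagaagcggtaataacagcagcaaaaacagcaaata
CG42710 chr2L:8791924-8792123: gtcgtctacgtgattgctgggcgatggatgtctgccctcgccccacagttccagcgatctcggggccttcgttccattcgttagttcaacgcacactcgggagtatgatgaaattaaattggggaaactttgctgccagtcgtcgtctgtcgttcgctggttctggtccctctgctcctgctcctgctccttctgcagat

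The CG10195 window held 9 overlapping matches to GAGAG in a single GA run, and the pdm2 window held 7 in separate short runs. The H15 window held 2, and the nerfin-2, fd96Cb and Adgf-A windows held 1 each. The CG42710 window held no match to any of the 9 motifs, and the Cadps window held its single TATCGATA and nothing else.

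Over all 963 shared intergenic regions, GAGAG was the motif found most often. It is also the shortest of the 9 motifs, and shorter motifs match more often, so its rank among them is not read as a result. It occurred in 373 windows of 200 bp, or 38.7% (35.7 to 41.8), against 23.2% of the 1634 intergenic regions absent from a list (21.2 to 25.3) and 20.9% of 168825 gene-free autosomal windows of the same length. The share was 42.1% in intronic and 33.3% in promoter regions shared by all lists, so intergenic and intronic regions had overlapping intervals (39.6 to 44.7 for intronic). Across distances the intervals overlapped, and GAGAG was found in 43.2% of the shared regions within 1 kb of a start site (35.8 to 50.9) and in 35.8% of those farther than 10 kb (28.8 to 43.6). It varied with height and was present in 25.7% of regions with a mean fold enrichment under 3, 31.8% from 3 to 5, 49.5% from 5 to 8 and 62.3% at 8 or more. Regions with GAGAG had a median mean fold of 4.91 (4.52 to 5.28, n = 373) and those without it 3.85 (3.70 to 3.98, n = 590), where fold enrichment is the deposited ratio of the pileup of fragments at the summit to the local background. Under a mean fold of 3, the interval of the GAGAG share (19.7 to 32.9) took in the 23.2% of the regions absent from a list. Shared and other intergenic regions were not matched for height, and the part of height in their difference was not tested.

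Promoter elements were rarer in the shared intergenic regions than at promoters. TATCGATA was in 7 of 963 windows (0.727%, 0.353 to 1.49) and GGTCACACT in 3 (0.312%, 0.106 to 0.912), whereas promoter windows held them in 6.85% and 7.02% and gene-free windows in 0.594% and 0.152%. TATAAA was in 12.3% of the shared intergenic windows, 11.4% of the other intergenic windows, 20.3% of promoter windows and 24.3% of gene-free windows. The homeodomain core TAATTA was in 5.92% of the shared intergenic windows (4.60 to 7.59), 7.16% of the other intergenic windows and 14.6% of gene-free windows. Base composition differed in the same direction, since the median GC content was 49.0% in the shared and 48.5% in the other intergenic windows but 41.0% in gene-free windows, and its part in these shares was not tested. The E-box CAGCTG was in 12.4% of the shared intergenic windows (10.4 to 14.6), 11.0% of the other intergenic windows and 6.99% of gene-free windows, and CATATG in 8.0%, 6.92% and 5.71% of the same 3 sets. TGANTCA was in 1.77%, 2.63% and 3.65% of them, and CAGGTAG in 0.831%, 0.612% and 0.900%. Between shared and other intergenic regions, GAGAG was the motif whose intervals lay clearly apart.

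**Figure D1:**
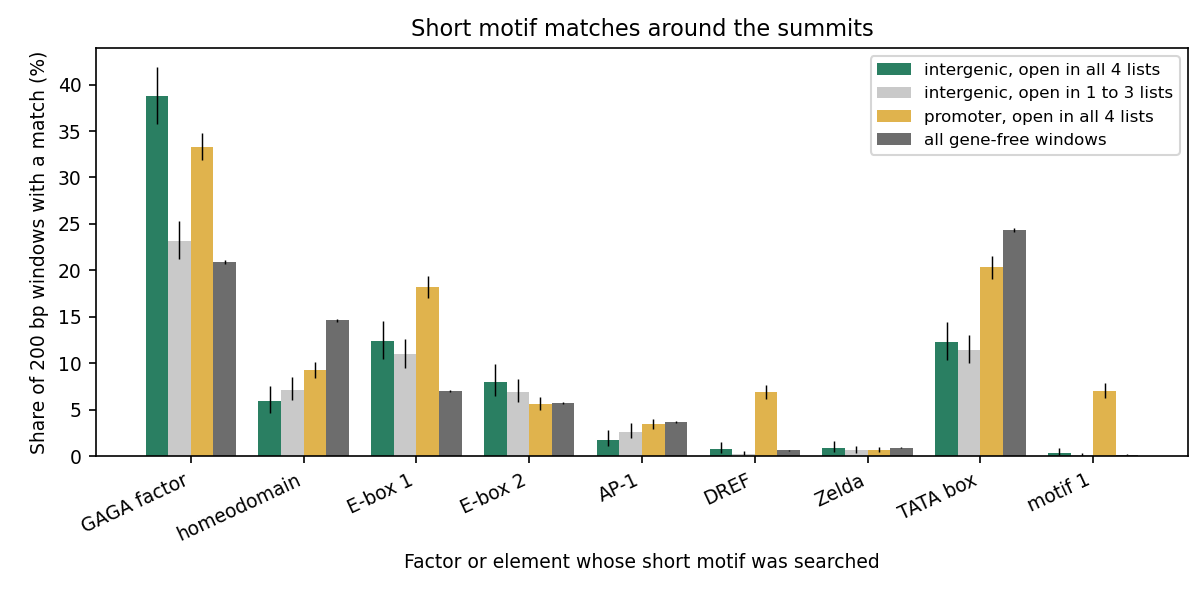
Share of 200 bp windows with at least 1 match to each short motif (vertical axis, %), by the factor or element it stands for, with 95% Wilson intervals. E-box 1 is CAGCTG and E-box 2 is CATATG. The GAGA factor core stood at 38.7% in shared intergenic regions and 23.2% in those of 1 to 3 lists, and DREF and motif 1 reached 6.85% and 7.02% at promoters.

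Gene-free sequence made up 34.9 Mb of the autosomes in 10346 stretches with a median length of 462 bp. Only 699 of these stretches (6.76%) held a shared region, and their median length was 10861 bp. Shared regions occurred at 27.6 per Mb of all gene-free sequence, at 2.33 per Mb in stretches of up to 1 kb, where room is short, at 44.2 per Mb in stretches of 2 to 5 kb, and at 35.9, 41.9 and 33.0 per Mb in stretches of 5 to 10, 10 to 20 and 20 to 50 kb. Stretches over 50 kb held 64 at 7.62 per Mb, and the other intergenic regions were also scarce there, at 11.8 per Mb. By arm, 3R held 272 of the shared regions, 2L 246, 3L 224 and 2R 206, at 22.5 to 32.4 per Mb, and chromosome 4 held 15 at 52.9 per Mb. Divergent stretches, whose flanking genes both point away from the stretch, held 26.2% of the shared regions (23.5 to 29) and 22.6% of the other intergenic regions (20.6 to 24.7), with 23.1% of gene-free sequence. Convergent stretches held 22.0% of the shared regions (19.5 to 24.7) and 26.6% of the others (24.5 to 28.8).

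The median distance from a shared region to the nearest start site was 3470 bp (3231 to 3788), and 3942 bp for the other intergenic regions (3696 to 4237). Distances ran from 54 to 86556 bp. Within 1 kb of a start site lay 162 shared regions, or 16.8% (14.6 to 19.3), beside 13.4% of the others (11.8 to 15.1), and beyond 10 kb lay 16.5% (14.3 to 19) and 17.6% (15.9 to 19.5). Most lay on the upstream side of the nearest start site, 595 of 963 or 61.8% (58.7 to 64.8), against 57.1% of the others (54.7 to 59.5), and among those within 1 kb the upstream share was 88.3% (82.4 to 92.4), against 83.6% of the others (78.1 to 87.9). With start sites of all genes, intervals of shared and other intergenic regions overlapped for the median, both ends of the distribution and the side. To protein-coding start sites alone the medians lay apart, at 4862 bp (4338 to 5393) for shared and 6101.5 bp (5616 to 6521) for other regions. Within 1 kb of such a site lay 12.7% of the shared regions (10.72 to 14.92) and 9.18% of the others (7.87 to 10.68), with intervals narrowly apart. Beyond 10 kb of such a site the intervals overlapped.

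**Figure D2:**
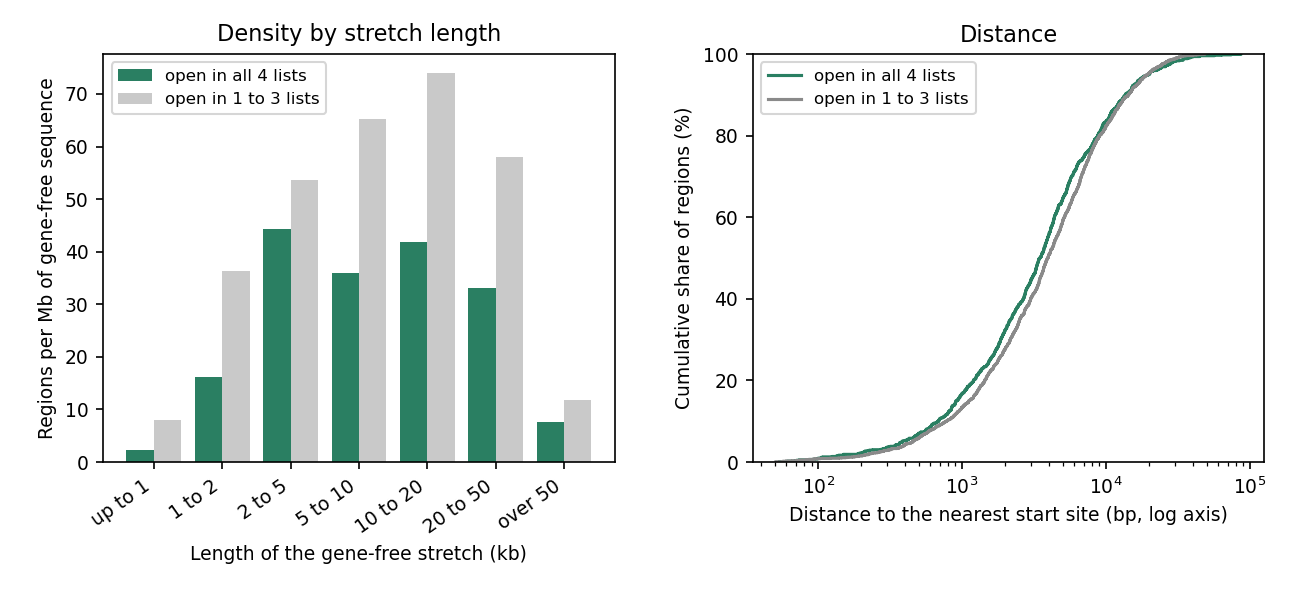
Left, regions per Mb of gene-free autosomal sequence by the length of the stretch they lie in. Right, cumulative share of regions (%) by distance to the nearest start site on a log axis, where the medians were 3470 bp for regions of all 4 lists and 3942 bp for those of 1 to 3 lists.

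At the inner edge of the rule, the closest regions kept lay 54 bp upstream of CG11741, 61 bp upstream of lncRNA:CR45054 and 69 bp upstream of lncRNA:CR44539. The CG11741 region had a fold enrichment of 12.5 and 12.7 in the male and female fru+ pools and 13.5 and 12.8 in the male and female fru- pools, the lncRNA:CR45054 region 2.26, 2.41, 2.39 and 2.45, and the lncRNA:CR44539 region 8.87, 7.05, 8.24 and 7.42 in the same order of pools. Another 22 regions of all 4 lists overlapped no gene but came within 50 bp of a start site and were left out. The farthest of those from a start site were 46 bp from CG33700, with fold enrichments of 4.01, 3.34, 3.17 and 4.14, 40 bp from CG9445, with 3.02, 3.01, 2.69 and 2.91, and 38 bp from lncRNA:CR43650, with 8.12, 6.49, 7.25 and 6.90. At the authors' peak threshold, the lowest -log10 q of any shared region in any list was 3.64, and 31 regions (3.22%) had a value under 5 in at least 1 list. Of the regions that missed the rule by 1 list, 185 and 106 lacked a peak in the male and female fru+ lists and 35 and 54 in the male and female fru- lists.

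At the other extreme, the 4 regions farthest from any start site all lay beyond the 3′ end of Cadps, a gene for a protein that primes dense-core vesicles for release, in the last 76372 bp of chromosome 4. The region at chr4:1288532-1289093 was the highest of all 963, with a fold enrichment of 16.8 and 18.2 in the male and female fru+ pools and 19.7 and 20.1 in the male and female fru- pools. That at chr4:1305899-1306782 had 16.9, 17.5, 16.3 and 17.4, and that at chr4:1318439-1319244, which is 86556 bp from the start site, had 15.7, 13.0, 15.7 and 14.7. At the last of these the summit pileup was 448 and 197 fragments in the male and female fru+ pools and 520 and 255 in the male and female fru- pools, so the male lists stood further above the female ones in pileup than in fold enrichment. These end regions were as high in the fru- as in the fru+ pools, and each overlapped an annotated transposable element. The window shown for the highest has a near-identical copy on Y, at 95% identity or more over at least 160 bp. A region at chr4:1295086-1295480 had 4.38, 4.46, 6.09 and 4.94 and a second copy on chromosome 4. The fifth farthest, at chr3R:28092516-28092821 and 44945 bp downstream of the start of trv, had only 2.55, 2.46, 2.57 and 2.29. In all, 31 shared regions (3.22%) and 1.41% of the other intergenic regions overlapped a transposable element, 9 of the 31 on chromosome 4, and 7 shared regions had a copy elsewhere in the genome, 4 of them on X or Y.

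Clustering was modest. Another shared region lay within 5 kb, edge to edge, of 280 of the 963, or 29.1% (26.3 to 32.0), in 122 runs, most of which (97) held just 2 regions. Of the 1634 other intergenic regions, 55.7% (53.3 to 58.1) had another of their own kind within 5 kb. Their median distance to the next was 3903.5 bp, and that of the shared regions 11536 bp. The other set is larger, at 46.8 per Mb of gene-free sequence against 27.6, and the part of density in this contrast was not tested. Counted by gene-free stretch, 528 stretches held 1 shared region and 171 held 2 or more, which together took in 435 regions, or 45.2%. There were 17 stretches with 4 or more, and they held 93.

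The fullest stretch was the 75047 bp between NijA, a gene for the cell-surface protein ninjurin A, and CG43245 on 3L, with 8 shared and 11 other intergenic regions. The highest of its shared regions by mean fold enrichment, at chr3L:10707177-10708184, had 7.00 and 6.45 in the male and female fru+ pools and 6.89 and 6.29 in the male and female fru- pools. The next, at chr3L:10754251-10755257, had 7.78, 4.0, 5.03 and 3.85 in the same order, and so exceeded it in male fru+ but not in the 3 other pools. The other 6 lay between 3.08 and 4.58 in every list. Neighbours in 1 stretch therefore differed in how even they were across pools.

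The 36783 bp between Su(z)2, a Polycomb group gene, and CG13323 on 2R held 7 shared regions and no other intergenic region, 5 of them in a run of 14553 bp. The region at chr2R:13014704-13016161 was the highest there, with 10.2 and 11.3 in the male and female fru+ pools and 11.4 and 11.3 in the male and female fru- pools. The region at the Su(z)2 end, chr2R:13008026-13009457, had 3.38, 6.69, 6.40 and 7.47, and its width was 239 bp in male fru+ but 1432, 989 and 1071 bp in the other pools. Thus male fru+ was lowest and narrowest at 1 end of a stretch whose remaining regions lay between 4.56 and 11.4 in all pools. On 2L, the stretch from lncRNA:CR44971 to ACXC, an adenylyl cyclase gene, held 7, and that from CG10651 to lncRNA:CR40341 held another 7. The first of these ranged from a low region at chr2L:12883949-12884516, with 2.71, 2.37, 2.40 and 2.06, to a high one at chr2L:12854504-12854959, with 15.2, 15.7, 16.6 and 15.7, whose 4 summits coincided to the base. The second had its highest value at chr2L:20148280-20148894, with 11.9, 13.0, 11.2 and 11.1. On chromosome 4, 6 shared regions lay in 25301 bp between mir-9385 and lncRNA:CR43437, whose nearest protein-coding genes are dati, a zinc-finger gene, and lgs, which encodes legless, a partner of beta-catenin, and the highest of them, at chr4:419573-420024, had 6.28, 7.32, 6.79 and 7.75. In each of the last 3 stretches the same region was the highest in all 4 lists.

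The 963 regions had 765 distinct nearest genes, of which 138 were nearest to 2 or more regions and 36 to 3 or more. Most nearest genes were protein-coding (658 regions, 68.3%), 276 regions (28.7%) were nearest to a non-coding RNA gene, 16 to a tRNA gene and 12 to a pseudogene. Cadps was nearest to 6 regions, and CG10651, CG13323, NijA, a5, lncRNA:CR40341 and lncRNA:CR45410 to 5 each. The BTB gene bab1, bric a brac 1, was nearest to 4.

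Several of the highest regions lay beside transcription factor genes. A gene on the transcription factor lists, which were chosen with earlier results of these data known, was nearest to 50 shared regions, or 5.19% (3.96 to 6.78), representing 42 genes, whereas the share was 1.53% of the other intergenic regions (1.04 to 2.25) and 1.77% of autosomal genes are on these lists. Intronic and promoter regions of all 4 lists had shares of 8.91% and 4.58%. Of the 50 regions, 18 were nearest to a homeodomain gene (1.87%, against 0.367% of the other intergenic regions), 18 to a zinc-finger gene (1.87%, against 0.490%), 6 to a forkhead gene, 3 to a Sox or HMG gene, 2 to a nuclear receptor gene and 1 each to an HLH, a T-box and another factor gene. These 50 regions lay upstream of their gene in 47 cases, at a median of 1830 bp, and 34 of 50 held GAGAG (68.0%, 54.2 to 79.2). Of the other 913, 548 lay upstream, the median distance was 3599 bp and 37.1% held GAGAG (34.1 to 40.3). Height differed likewise, with a median mean fold enrichment of 6.64 (4.90 to 7.74) near the 50 and 4.05 (3.91 to 4.17) elsewhere. Shared and other intergenic regions were not matched for height here either, and its part in the shares near factor genes was not tested.

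The highest of the homeodomain regions lay 1040 bp upstream of pdm2, a POU factor of neural lineages, and had a fold enrichment of 14.7 and 13.1 in the male and female fru+ pools and 14.6 and 14.3 in the male and female fru- pools. A region 227 bp upstream of bsh, brain-specific homeobox, had 12.6, 11.5, 14.0 and 12.5, and one 1043 bp upstream of toe, a Pax gene of the eye, had 9.23, 11.0, 12.1 and 11.8. All 3 were open at like heights in the 4 pools, with male fru+ lowest only at toe. Among zinc-finger genes, nerfin-2 had 14.7, 15.1, 15.9 and 16.1 at 485 bp upstream, dar1, a Krüppel-like factor of dendrite growth, 14.0, 13.4, 12.1 and 13.2 at 1072 bp, and sr, stripe, an Egr-type factor, 8.01, 8.36, 10.1 and 9.21 at 387 bp. The forkhead pair fd96Cb and fd96Ca had 9.12, 10.3, 11.5 and 11.6 at 74 bp and 8.49, 9.77, 9.96 and 8.74 at 1946 bp, and slp2, sloppy paired 2, had 8.91, 8.78, 9.20 and 9.22 at 1121 bp. Their peaks were narrow, with 272 to 289 bp in every list at fd96Cb and 204 to 222 bp at fd96Ca, and each held GAGAG. The stretch between Sox21a and Sox21b, SoxB genes, held 2 regions nearest to Sox21a, with 9.12, 7.59, 8.62 and 8.11 at 1656 bp and 7.33, 6.64, 6.17 and 6.38 at 3374 bp, both highest in male fru+. A region 8909 bp from SoxN was lower, with 2.90, 3.28, 3.67 and 3.56. The T-box gene H15 had the second highest region of all 963, 194 bp upstream, with 17.9, 16.8, 18.4 and 17.3.

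Genes of neuronal signalling and wiring were nearest to fewer regions, from lists each shorter than the transcription factor lists together. Cell adhesion and recognition genes were nearest to 13 shared regions, 1.35% (0.791 to 2.30), against 35 or 2.14% of the other intergenic regions (1.54 to 2.96), and 0.560% of autosomal genes are on that list. These counts depended on the nearest-gene rule. By protein-coding start site, adhesion genes were nearest to 25 shared regions (2.60%), ligand-gated receptor genes to 6 and transcription factor genes to 73 (7.58%). An adhesion gene flanked the gene-free stretch of 62 shared regions, a ligand-gated receptor gene that of 16 and a transcription factor gene that of 89. Toll-4, a Toll-family receptor gene, had 11.0 and 10.2 in the male and female fru+ pools and 13.3 and 12.7 in the male and female fru- pools. Nlg3, a neuroligin of the synapse, had 8.28, 8.23, 9.57 and 9.43, and DIP-delta, an immunoglobulin-domain receptor for Dpr proteins, had 9.28, 8.06, 8.55 and 7.07. Receptors for neuropeptides and amines were nearest to 7 shared regions (0.727%) and to 0.673% of the others, with 0.313% of autosomal genes. They were led by AstA-R2, an allatostatin A receptor, with 11.5, 11.6, 13.8 and 12.7, then rk, the bursicon receptor, with 7.66, 7.35, 8.17 and 7.36, and 5-HT2A, a serotonin receptor, with 6.07, 7.01, 7.34 and 7.18. Neuropeptide genes were nearest to 3 (0.312%) and to 0.306% of the others, with 0.293% of autosomal genes. Nplp2 had 6.70, 4.20, 4.68 and 4.83, Lk, leucokinin, 5.12, 3.74, 4.43 and 3.79, and AstC, allatostatin C, 4.15, 3.98, 4.02 and 3.86. Male fru+ was the highest pool at each of these 3 peptide genes, by most at Nplp2. Ion channel genes, transmitter synthesis and transport genes, ligand-gated receptor genes and clock genes were nearest to 1, 1, 2 and 2 shared regions and to 4, 0, 5 and 1 of the others.

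The fru gene itself, singled out after its value was seen, had 1 such region at chr3R:18548634-18549131, 3048 bp upstream of its nearest annotated start site in a divergent stretch shared with CG7691. Its fold enrichment was 3.59 and 3.71 in the male and female fru+ pools and 3.49 and 3.55 in the male and female fru- pools, and its width was 467, 470, 491 and 455 bp. By fold enrichment over local background and by width, the region was therefore nearly level across pools that differ in fru reporter activity. Its summit pileup and local background are not given separately here.

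The shared regions were of middling height in every list. Their median fold enrichment was 4.12 (3.96 to 4.31) and 4.09 (3.97 to 4.26) in the male and female fru+ lists and 4.13 (3.98 to 4.30) and 4.19 (4.02 to 4.29) in the male and female fru- lists, and their median percentile rank by q within a list lay between 46.1 and 48.2. Intronic regions of all lists had medians of 3.72 to 3.78 and promoter regions 6.54 to 7.06. Median width was 512 bp (485 to 530) and 494 bp (474 to 512) in the male and female fru+ lists and 538 bp (523 to 558) and 521 bp (501 to 539) in the male and female fru- lists. This order followed the recovered genome background of the lists only in part, at 18 fragments and 14.3 in the male and female fru+ pools and 18.9 and 16.4 in the male and female fru- pools. The list of lowest background was the narrowest and that of highest background the widest. Between them, female fru- was wider than male fru+ at a lower background. The part of read depth, which the lists do not give, was not tested. In pooled cells, a region open in fewer cells and a region cut less often per cell cannot be told apart.

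**Figure D3:**
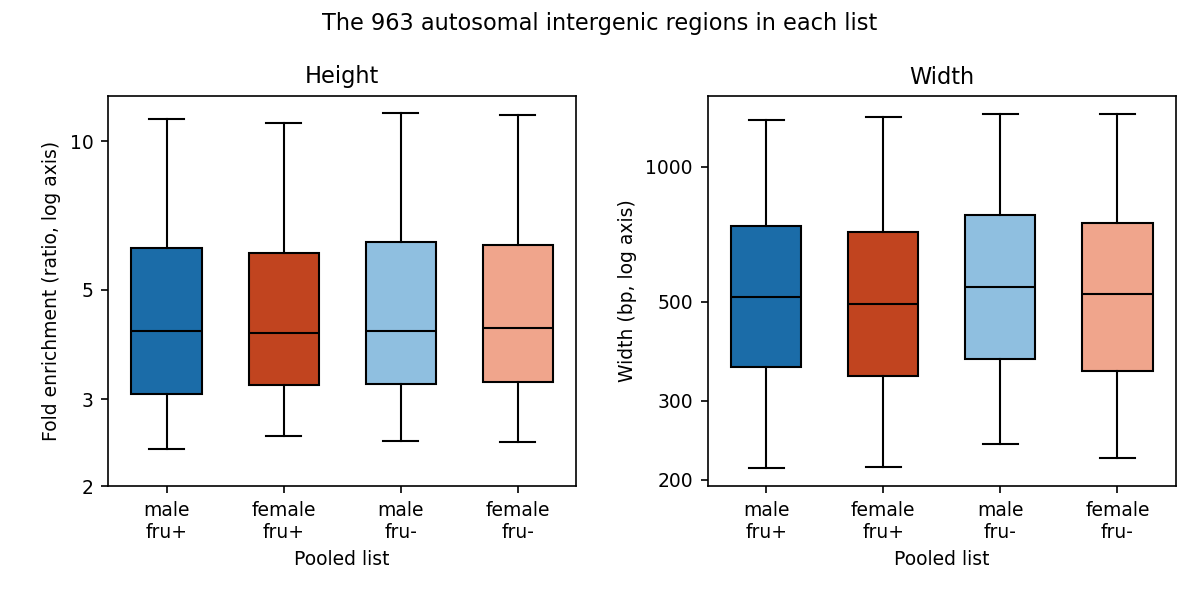
Fold enrichment (left) and width (right) of the 963 regions in each pooled list, both on log axes. Boxes span the quartiles with the median as a line, and whiskers run over the 5th to 95th percentiles. The 4 lists had nearly the same height, with medians of 4.09 to 4.19, and median widths of 494 to 538 bp.

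Merged regions had a median length of 650 bp (200 to 3161) and covered 0.721 Mb. In 900 of 963 (93.5%) each list had exactly 1 peak, and the stretch common to all 4 lists had a median of 377 bp, 64.4% of the merged length, although 5 regions had no base common to all 4. The 4 summits lay within 50 bp of each other in 362 regions and more than 200 bp apart in 177, with a median spread of 74 bp. The widest region, at chr3R:13800687-13803847 and 2417 bp upstream of tRNA:Phe-GAA-1-7, was low and broad, with widths of 3112, 2635, 2493 and 2470 bp and fold enrichments of 2.68, 2.31, 2.52 and 2.46. The lncRNA:CR45054 region, 61 bp from its start site, was 2861 bp long with summits up to 2250 bp apart, and the Cadps region at chr4:1276561-1279101 was 2541 bp long but high, with 8.72, 10.6, 9.96 and 10.3. Width and height thus did not go together among the widest.

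Differences between pools were small at most of these regions. The rule itself favours this, since regions without a peak in some list were left out beforehand. The intronic and promoter regions set beside them were filtered in the same way. The ratio of the highest to the lowest of the 4 fold enrichments had a median of 1.27 (1.26 to 1.29) and passed 1.5 in 181 regions, or 18.8%, and 2 in 19. The same share past 1.5 was 9.15% over all 6926 autosomal regions of all lists, 17.3% in intronic and 3.36% in promoter regions, so the intergenic regions were about as even as the intronic ones and less even than promoters. The fold enrichment ratio passed 2 in 1.97% of the shared regions, beside 0.679% of all 6926 and 1.39% of intronic regions. Widths varied more, with a median ratio of 1.42 (1.38 to 1.46) and 43.9% past 1.5, beside 1.21 and 25.4% over all 6926 regions. After each list was centred on its median, male fru+ was the highest pool at 329 regions (34.2%, against 26.9% over all autosomal regions of all lists) and the lowest at 304 (31.6%, against 34.5%).

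To compare pools, the log2 ratio of fold enrichment was taken for each pair and centred on its median over all 6926 regions, which had lain between -0.09 and 0.01, and a region was counted when it passed 1.5-fold. For male fru+ over male fru-, which contrasts neurons with and without reporter activity in males, 63 regions were higher and 31 lower in male fru+, or 6.54% (5.15 to 8.28) and 3.22% (2.28 to 4.53), beside 2.73% and 1.47% of all 6926 regions. Without centring these counts were 41 and 46, and by the summit pileup recovered from the lists, over the genome background, 81 and 48, so which direction held more depended on the centring. For male fru+ over female fru+, where the pools differ in sex, 42 regions were higher and 38 lower in male fru+. These were 4.36% (3.24 to 5.84) and 3.95% (2.89 to 5.37), beside 2.12% and 1.6% of all regions. The recovered pileup gave 46 and 79 instead. For female fru+ over female fru-, 19 were higher and 8 lower in female fru+. These were 1.97% (1.27 to 3.06) and 0.831% (0.422 to 1.63), beside 0.751% and 0.433%. Without centring these counts were 12 and 14, and by the recovered pileup 39 and 10. For male fru- over female fru-, 4 were higher and 2 lower in male fru-, and the recovered pileup gave 4 and 5. The first counts were 0.415% (0.162 to 1.06) and 0.208% (0.057 to 0.754), beside 0.13% and 0.13%. The first 2 comparisons share the male fru+ list, so a value peculiar to that list enters both.

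Each of these shares lay above that of all regions, which are mostly promoters. For the lower counts of female fru+ over female fru- and of male fru- over female fru-, however, the interval took in that share. Among intronic regions of all lists the shares for male fru+ over male fru- were 5.57% higher (4.50 to 6.88) and 2.57% lower (1.87 to 3.53), and for male fru+ over female fru+ 4.24% (3.32 to 5.42) and 3.55% (2.71 to 4.64), so intergenic and intronic intervals overlapped throughout these 4 counts. Of the 63 higher in male fru+ than in male fru-, 48 had a mean fold enrichment of 3 to 5, 9 of less than 3, 5 of 5 to 8 and 1 of 8 or more, where all 963 regions had 466, 167, 184 and 146 in these classes. Of these 63, 24 held GAGAG (38.1%), and of the 31 lower ones 6 did (19.4%), beside 38.7% of all 963. For male fru+ over female fru+ the shares were 38.1% of the 42 higher and 28.9% of the 38 lower regions. For female fru+ over female fru-, 2 of 19 higher and 1 of 8 lower regions held it. A low share was thus not particular to the regions lower in male fru+.

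Counted by width, for male fru+ over male fru- 86 regions (8.93%) were wider and 133 (13.8%) narrower in male fru+. The shares were 4.78% and 7.05% of all regions and 8.70% and 14.4% of intronic regions of all lists. For male fru+ over female fru+ the counts were 118 (12.3%) and 108 (11.2%), beside 7.55% and 5.6% of all and 12.2% and 12.3% of intronic regions. For female fru+ over female fru- they were 59 (6.13%) and 100 (10.4%), beside 3.87% and 5.83% of all and 8.07% and 10.2% of intronic regions. For male fru- over female fru- they were 65 (6.75%) and 41 (4.26%), beside 4.24% and 2.27% of all and 6.82% and 4.38% of intronic regions. Intergenic and intronic intervals overlapped in each of these width counts. Of the 63 regions higher in male fru+ than in male fru-, 31 were also wider past 1.5-fold and 0 were narrower, and of the 31 lower ones 23 were also narrower and 0 wider.

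**Figure D4:**
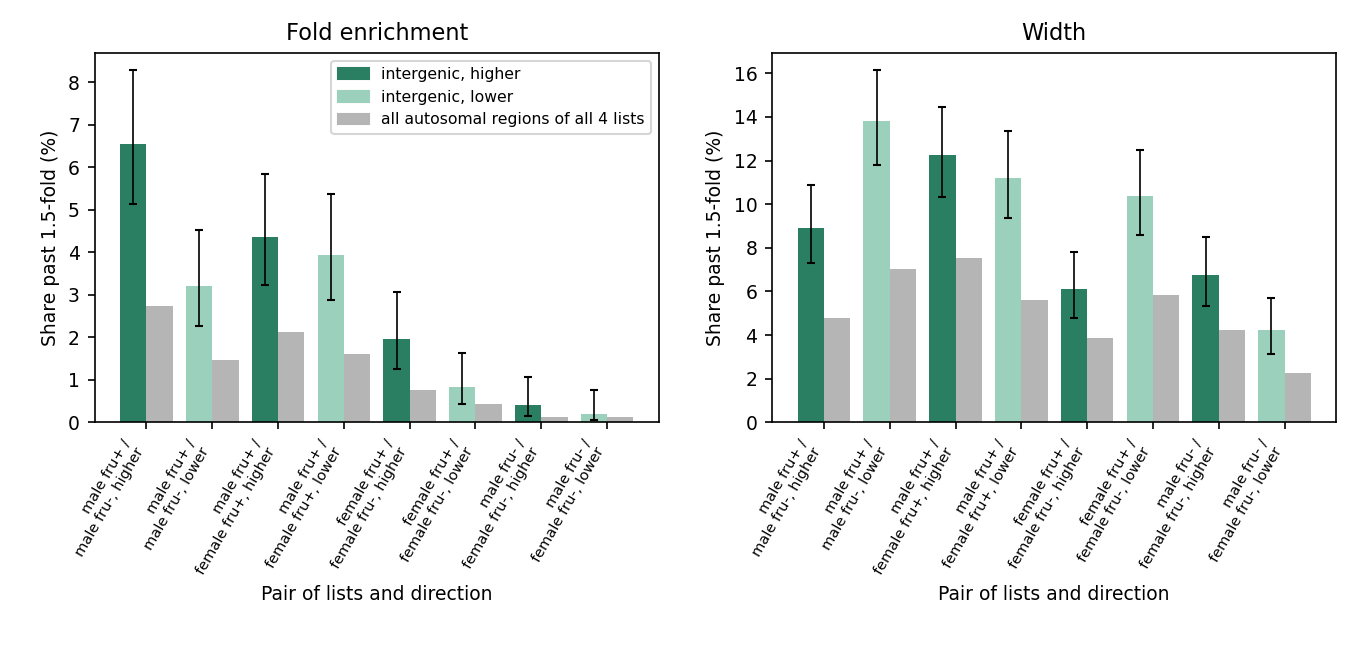
Share of regions past 1.5-fold (%), for each pair of lists and direction, by fold enrichment (left) and width (right). Green bars are the 963 intergenic regions with 95% Wilson intervals and grey bars all 6926 autosomal regions of all lists. Each green bar exceeds its grey bar, and the pairs with male fru+ have the tallest bars for fold enrichment. For fold enrichment, the intervals of female fru+ over female fru-, lower, and male fru- over female fru-, lower, take in the grey bar.

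Particular regions stood higher in male fru+ than in the 3 other pools. At chr3L:17766957-17768023, 2799 bp upstream of Adgf-A, which encodes a secreted adenosine deaminase, fold enrichment was 5.96 and 2.49 in the male and female fru+ pools and 2.67 and 2.41 in the male and female fru- pools. The summit pileups were 112, 37, 52 and 41 fragments over local backgrounds that equalled the genome background in all 4 lists. The peak was 1067 bp wide in male fru+ and 221, 386 and 613 bp in the others. At chr3R:13622450-13623314, 3891 bp upstream of lncRNA:CR45680, the values were 6.48, 3.08, 3.26 and 3.28, and at chr2L:18413393-18414513, 9445 bp downstream of the start of lncRNA:CR44487, they were 6.49, 3.15, 3.32 and 2.87. At CG14931, 2989 bp upstream, they were 6.01, 3.12, 2.70 and 3.74. In each of these 4 regions male fru+ stood above the other pools, which lay closest together at Adgf-A and lncRNA:CR45680.

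Other regions were low in male fru+ alone. At chr2L:8791789-8792327, in the stretch between CG42710 and SoxN, a SoxB gene, fold enrichment was 2.37 and 4.52 in the male and female fru+ pools and 5.03 and 4.54 in the male and female fru- pools. Obp56g, an odorant-binding protein gene, had 3.06, 5.77, 6.24 and 6.04 in a region 2417 bp downstream of its start, and lncRNA:CR45337 had 2.17, 4.63, 3.96 and 5.25. At lncRNA:CR46217 the values were 2.64, 5.86, 4.33 and 4.08, so male fru+ was lowest and female fru+ highest. Each remained a called peak in male fru+, with a pileup of 44 to 57 fragments.

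The largest female fru+ over female fru- ratios lay at CG31294, with 2.74 and 4.96 in the male and female fru+ pools and 2.77 and 2.87 in the male and female fru- pools, and at CG11251, with 2.74, 4.85, 3.02 and 2.87. There female fru+ stood alone. At CG30098 both fru+ pools were high, with 4.01, 4.46, 2.67 and 2.70, and at a5, an antennal protein gene, both were low, with 2.30, 2.62, 3.89 and 4.30. CG16894 had 3.80, 3.28, 4.48 and 5.40. Reporter status thus ordered the pools at CG30098, a5 and CG16894.

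At 2 regions the local background differed between pools and the summit pileup hardly did. At chr2R:12990705-12992000, 1897 bp upstream of CG33798, fold enrichment was 4.30 and 4.17 in the male and female fru+ pools and 8.85 and 8.76 in the male and female fru- pools. Its summit pileup over the genome background was 18.8, 16.5, 19.6 and 19.4, whereas its local background over that of the genome was 4.32, 3.90, 2.17 and 2.16. At chr2R:25281197-25281517, 25879 bp upstream of CG9380 near the end of the arm, fold enrichment was 3.81 and 8.13 in the male and female fru+ pools and 3.62 and 7.82 in the male and female fru- pools. Its pileup over the genome background was 9.24, 8.63, 8.90 and 8.24, and its local background was 2.38, 1.00, 2.42 and 1.00 times that of the genome. The CG9380 window has copies on X, elsewhere on 2R and on unplaced sequence, and their part in this result was not tested. Between males and females of the fru- pools, the ratio was otherwise highest at spel1, a mismatch repair gene, with 3.22, 3.93, 4.08 and 2.53, at lncRNA:CR43769, in the stretch next to numb, an inhibitor of Notch, with 8.81, 6.75, 8.30 and 5.46, and at SP1173, with 4.85, 5.51, 8.25 and 5.46. It was lowest, after CG9380, at osy, with 3.17, 3.43, 2.34 and 3.82, and at CG8654, with 3.41, 3.55, 2.23 and 3.29. At lncRNA:CR43769 both male pools exceeded both female pools, while at SP1173 and CG8654 the male fru- pool alone stood apart.

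**Figure D5:**
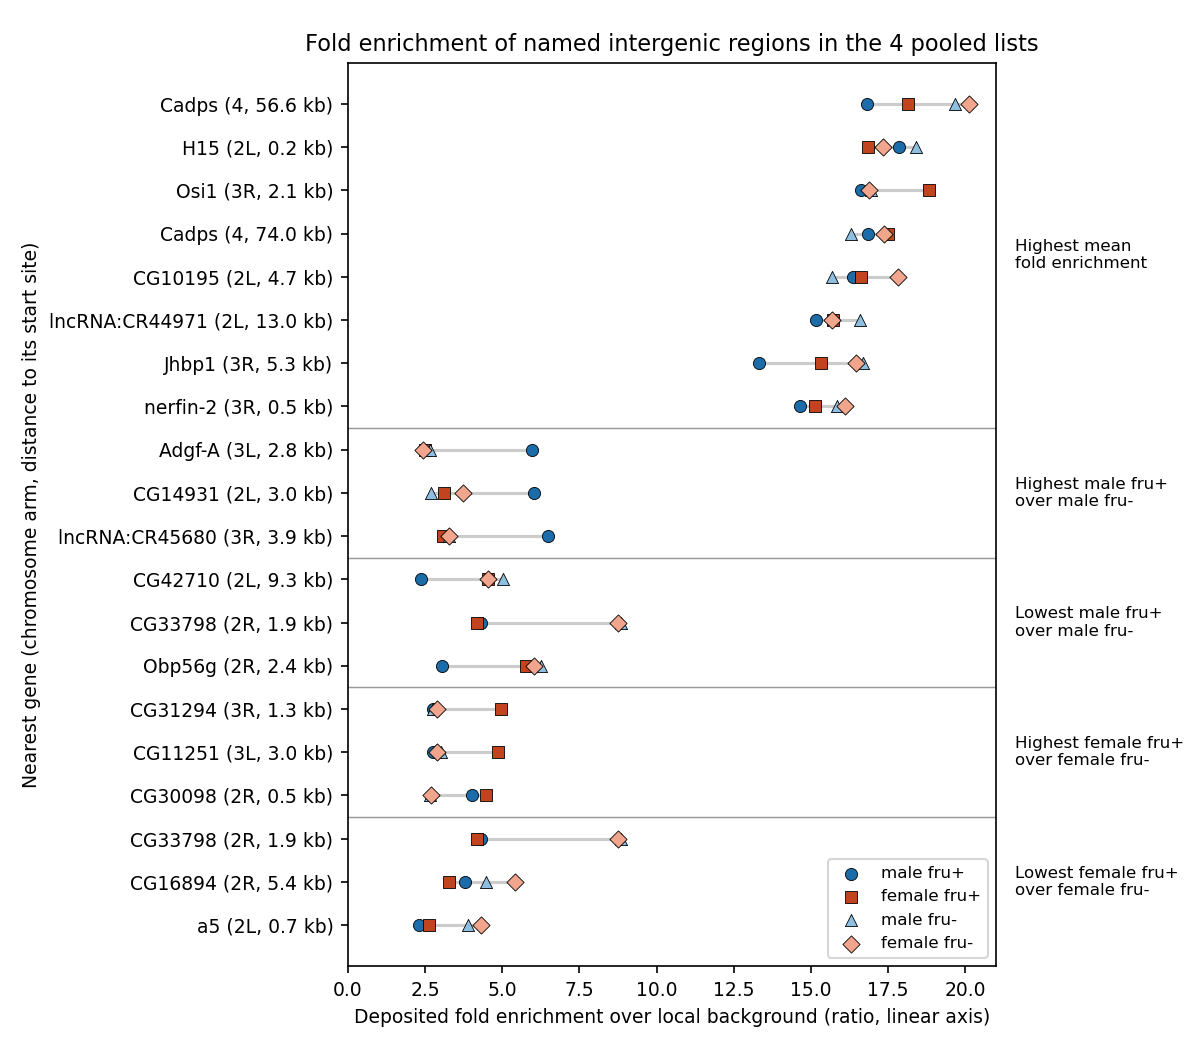
Deposited fold enrichment (horizontal, linear axis) of named regions in the 4 pooled lists, 1 symbol per list, with the nearest gene, arm and distance at left. The 8 highest regions lie between 13.3 and 20.1 in every list. Adgf-A shows male fru+ alone at 5.96, and CG33798 shows both fru+ pools near 4 with both fru- pools near 9.

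Among the remaining regions of highest fold enrichment, Osi1, of the Osiris gene family, had 16.6 and 18.8 in the male and female fru+ pools and 16.9 and 16.9 in the male and female fru- pools at 2122 bp upstream. CG10195 had 16.4, 16.6, 15.7 and 17.8, with its 4 summits at the same base, and Jhbp1, a juvenile hormone binding protein gene, had 13.3, 15.3, 16.7 and 16.5. The 8 highest regions were thus open in every pool to nearly the same degree, and male fru+ was the lowest pool at 5 of them.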

How the data were processed

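ATAC-seq was analysed from 4 pooled peak lists, 1 per group. The authors trimmed reads with cutadapt, aligned them to dm6 with Bowtie2, marked duplicates with Picard, kept a mapping quality of 30 and called peaks with MACS2 at an FDR of 0.001; versions are not given in the sources used here. Whether cut positions were shifted for the transposase is likewise not given, and summits may be offset by a few bases. The deposited fold enrichment is a ratio, at the summit, of the fragment pileup plus 1 to its local background plus 1. The deposited -log10 p and -log10 q values are those of the summit, and the deposited score restates the -log10 q. The pileup and local background were recovered from the fold enrichment and -log10 p within a tolerance of 0.01 for 11307 and 11218 peaks of the male and female fru+ lists and 11217 and 11605 of the male and female fru- lists. The lists hold no read counts per region and do not give read depth. The text of the paper gives a range of reads over the libraries but not the depth of each list.

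Genes came from Ensembl release 115 (annotation 6.54) and sequence from the RefSeq assembly of dm6. Peaks of the lists were merged from 1 bp of overlap. Per list, a region's height was its highest fold enrichment and its width the summed length of its peaks. Shares have 95% Wilson intervals and medians order-statistic intervals. Motifs were sought on both strands in 200 bp windows, and copies with BLAST 2.17.0. Python 3.11.15, numpy 2.4.6, pandas 2.3.3 and scipy 1.17.1 were used, and the scripts were tested on simulated data. The regions and the 15 gene lists were chosen with earlier results of these data known. Named regions were the 8 highest, those of the 5 fullest stretches, the 5 farthest, the 3 nearest to either side of the 50 bp limit, the 3 highest and 3 lowest ratios of each pair, the 3 widest, and the 3 highest of each gene list with at least 3 regions. Alternatives changed the annotation, the distance limit, the peak threshold, the merging, the lists required, the fold, the centring, the window and the nearest-gene rule.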

Additional observations from a re-analysis of the deposited data

Results flagged for a closer look

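At 12 of the 963 regions the centred log2 ratio of fru+ to fru- fold enrichment had opposite signs in males and in females and differed by more than 1 between them. The difference was not tested, since each pool has 1 list, and 390 regions (40.5%) had opposite signs at any size. These counts were made only for the shared intergenic regions. Whether opposite signs are more or less common among other autosomal regions of all lists was therefore not tested. No region passed 1.5-fold in opposite directions. At 6 regions the ratio in males was the higher one. The difference of males minus females was 1.45 at CG14931, with ratios of 1.24 in males and -0.21 in females. It was 1.15 at lncRNA:CR43487, 1.14 at lncRNA:CR44126, 1.13 at CG42758, 1.11 at lncRNA:CR45680 and 1.05 at AOX4. In these 6, male fru+ was the highest of the pools, as at CG42758 with fold enrichments of 6.54 and 3.54 in male and female fru+ and 3.77 and 4.37 in male and female fru-.

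At the other 6 regions the ratio in males was the lower one. The difference was -1.20 at lncRNA:CR46217, with -0.63 in males and 0.58 in females. It was -1.16 at lncRNA:CR46215, -1.12 at CG15225, -1.05 at CG42710, -1.04 at CG33342 and -1.01 at CG4480. Male fru+ was the lowest pool in all 6, and female fru+ the highest in each except CG42710, where male fru- was. At CG15225, for example, fold enrichment was 2.58 and 5.16 in male and female fru+ and 3.82 and 3.45 in male and female fru-.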

How the results depend on the processing

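No paired analysis was possible because only the pooled lists, which hold no value per replicate, were analysed here. Of 98 alternatives to 33 results, 50 left the value within its interval or within 1.5 times the count, and 48 moved it. The number of regions stayed between 689 and 1148 throughout, with 931 when transposable elements counted as genes, 895 with a limit of 500 bp from a start site, 689 for peaks with a -log10 q of at least 10, and 998 to 1148 when 1 list was not required. The median distance became 2958 bp with transposable elements as genes, 3798 bp with the 500 bp limit, 3826 bp from the mean summit and 4862 bp to protein-coding start sites. The share with a neighbour was 46.3% within 10 kb, 15.5% within 2 kb, and 19.2% within 5 kb at a -log10 q of at least 10, where median widths were 557 and 542 bp in the male and female fru+ lists and 592 and 563 bp in the male and female fru- lists.

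Few regions passed 2-fold in fold enrichment: 5 higher and 0 lower for male fru+ over male fru-, 4 and 4 for male fru+ over female fru+, 0 and 1 for female fru+ over female fru-, and 0 and 1 for male fru- over female fru-. In width, 37 and 50, 43 and 38, 20 and 33, and 21 and 12 passed it in the same order of pairs. With the recovered pileup, 48 were lower for male fru+ over male fru-, 79 lower for male fru+ over female fru+, 39 higher for female fru+ over female fru- and 5 lower for male fru- over female fru-. Without centring, 41 were higher for male fru+ over male fru-, and 12 higher and 14 lower for female fru+ over female fru-. The cause was not tested. These alternative counts were made only for the shared intergenic regions, without the share over all autosomal regions of all lists.

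In windows of 400 bp, motif shares were 53.4% for GAGAG (41.4% in the other intergenic regions), 14.1% for TAATTA, 20.5% for CAGCTG, 14.5% for CATATG, 4.05% for TGANTCA, 1.66% for CAGGTAG and 26.6% for TATAAA, since a longer window holds more matches. Alternatives chosen after seeing the data placed the window on the summit of the highest list, with 4.57% for TAATTA and 10.1% for TATAAA, or kept the 579 regions whose summits lay within 100 bp, with 45.1% for GAGAG, 4.32% for TAATTA and 10.2% for TATAAA. Leaving out regions on a transposable element or with a copy elsewhere, a further such choice, left 928. The share nearest to a transcription factor gene was 7.58% by protein-coding start site (2.69% of the other intergenic regions) and 1.87% for homeodomain genes alone.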

Other observations

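Chemosensory genes were among the nearest genes at similar shares in both sets of intergenic regions. Odorant receptor genes were nearest to 14 shared regions (1.45%, 0.868 to 2.43) and to 26 of the other intergenic regions (1.59%, 1.09 to 2.32), gustatory receptor genes to 5 and 8, ionotropic receptor genes to 4 and 4, and odorant-binding protein genes to 4 and 6. Long non-coding RNA genes were nearest to 252 shared regions (26.2%, 23.5 to 29) and to 515 of the others (31.5%, 29.3 to 33.8). MicroRNA genes were nearest to 8 and 10, and tRNA genes to 16 and 16, or 1.66% (1.03 to 2.68) and 0.979% (0.604 to 1.58).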
